A study of Mus musculus with 6 samples.

Results

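The 10 genes described here are the 7 sirtuins (Sirt1 to Sirt7) together with Nampt, Nmnat1 and Parp1, which make or use the cofactor of the sirtuins, nicotinamide adenine dinucleotide (NAD). The rule that chose them uses their symbols and no measured value, although it was set with earlier results of these data known. They were taken from the 34745 genes of the deposited expression table, and all 10 were found there and passed the filter on low counts. The data are RNA-seq read counts of NOR-10, an established line of mouse skeletal muscle fibroblasts, in which D-galactose (D-gal) was used to induce senescence. The control group received PBS and the D-gal group 20 mg/mL D-gal for 3 days, according to the methods of the study, with 3 libraries in each group. Both groups are the same cell line, the labels name no genetic change in either, and nothing in the labels says that the 3 libraries of a group came from separate cultures, so the p-values measure the spread between these samples, which may be technical.

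Sirtuins are enzymes that remove acetyl and other acyl groups from proteins and consume NAD as they do so, which releases nicotinamide. Cells return nicotinamide to NAD by a salvage pathway in which Nampt makes nicotinamide mononucleotide and the Nmnat enzymes convert it to NAD, while poly(ADP-ribose) polymerases such as Parp1 spend NAD when DNA is damaged. NAD and sirtuin activity are widely studied in ageing and senescence, and activity is set by NAD and by the proteins as well as by the transcripts counted here.

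Total counts were 16876087 to 20830349 in control and 13759108 to 15157064 in D-gal libraries. Fibroblast markers summed to 7150 to 7354 CPM (counts scaled to the same library total) in control and 4692 to 4817 CPM in D-gal libraries. Of the 8 tested, 6 fell and 1 rose at an adjusted p under 0.05 in edgeR (87.5%, against 34.8% of all genes). Lum had 1 count in all and Fap 1 to 5 counts per library. The muscle cell markers Pax7, Myf5, Myod1 and Myh4 were at 0, while Des had 26 to 67 and Acta1 27 to 50 counts per library. All 10 proliferation markers tested were lower under D-gal, with summed levels of 2564 to 2591 CPM in control and 1703 to 1834 in D-gal libraries, and the part of this difference in the results for the 10 genes was not tested. Leukocyte markers summed to 17.3 CPM in control replicate 1 and 4.09 to 6.81 in the other libraries, so values without that library are given for the genes named as called. Endothelial markers summed to 4.41 to 6.31 and muscle cell markers to 3.95 to 6.32 CPM, and of the adipocyte markers Adipoq, Lep and Cidec were at 0. In bulk RNA, fewer cells that express a gene and less of its RNA per cell cannot be told apart.

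Of the 10 genes, Nampt and Sirt7 rose under D-gal, none fell, and 8 did not pass the test (edgeR's quasi-likelihood test, Benjamini-Hochberg adjusted p under 0.05 over all 13407 genes tested). These 2 of 10 stand against 34.8% of all genes tested (16.9% higher and 17.8% lower), so the genes were not called more often than genes at large. None reached the thresholds of the study, which ask in addition for a 2-fold change, while 4.21% of all genes tested did. Every one of the 10 intervals for the fold change lay inside 2-fold in either direction, with outer bounds of 0.738 and 1.57. The median size of the log2 fold change was 0.14 in the 10 genes and 0.19 in all genes tested. Control and D-gal libraries did not overlap in 4 of the 10 genes, 3 higher (Nampt, Sirt5 and Sirt7) and 1 lower (Sirt6). Among all genes tested this held for 49.1% (24.1% higher and 25.0% lower).

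**Figure D1:**
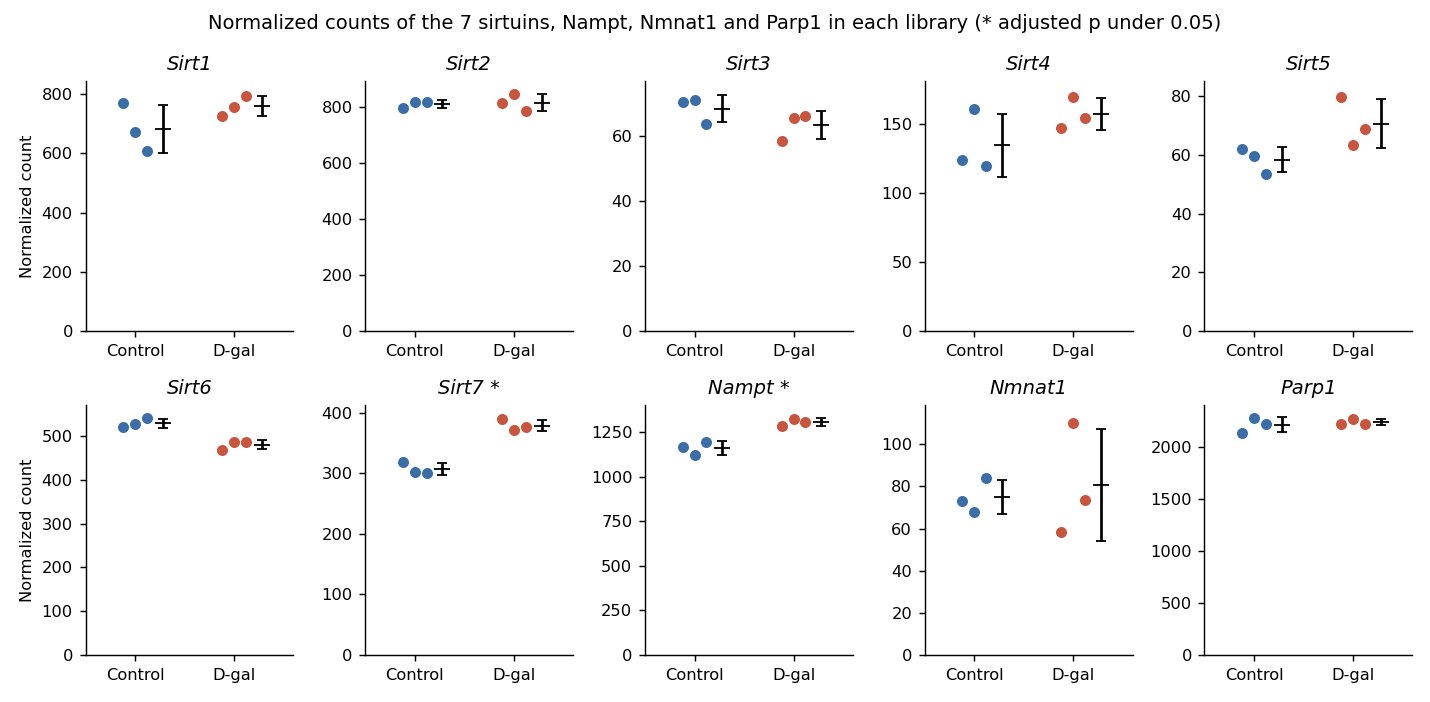
Normalized read counts (vertical axes, from 0) of the 10 genes in the 3 control and 3 D-gal libraries, with 1 point per library and the mean ± SD beside each group. Only Sirt7 and Nampt, marked with an asterisk, had an adjusted p under 0.05, with Sirt7 at 301 to 319 in control and 371 to 389 in D-gal libraries, and the libraries of Sirt5 and Sirt6 did not overlap either.

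Sequences before a RefSeq start of Nampt and of Sirt1 are printed, to set a called and an uncalled gene side by side. Nampt was, of the 10 genes, the NAD-making one that rose, and Sirt1 is the sirtuin best known for its dependence on that supply. Both come from RefSeq (GRCm38.p6) and hold no annotated exon. That of Nampt ends at the base before its RefSeq start, whereas that of Sirt1 stops short, because an exon covers the bases in between. Both lie inside the wider GENCODE gene spans, which begin at 32819545 for Nampt and, on the minus strand, at 63381704 for Sirt1. Capitals mark the GC box (GGGCGG, or CCGCCC on the other strand) and the E-box (CACGTG, which reads the same on both strands).
Nampt promoter: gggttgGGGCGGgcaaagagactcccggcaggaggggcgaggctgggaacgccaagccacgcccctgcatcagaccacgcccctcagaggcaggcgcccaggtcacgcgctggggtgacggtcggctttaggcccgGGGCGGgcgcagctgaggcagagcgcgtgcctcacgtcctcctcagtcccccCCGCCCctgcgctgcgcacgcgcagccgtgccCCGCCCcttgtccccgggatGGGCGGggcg
Sirt1 promoter: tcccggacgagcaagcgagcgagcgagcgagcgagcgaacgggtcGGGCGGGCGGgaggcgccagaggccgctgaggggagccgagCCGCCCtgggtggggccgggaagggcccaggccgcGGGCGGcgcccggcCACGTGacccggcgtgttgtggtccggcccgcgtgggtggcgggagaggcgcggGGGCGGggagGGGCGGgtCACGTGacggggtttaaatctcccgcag
The stretch of Nampt lies at chr12:32820085-32820334 on the plus strand and is 75.6% G or C. It holds 5 GC boxes, counted on both strands, and no E-box. The stretch of Sirt1 lies at chr10:63339051-63339285 on the minus strand, is 78.3% G or C and holds 6 GC boxes, some of which share bases. Its E-boxes begin 115 and 43 bases before the RefSeq start, which lies beyond the printed end. Over the RefSeq windows from 250 bases before to 50 after a start, an E-box was found in 7.15% of 32851 windows and in 2 of the 13 windows of the 10 genes (1 each of Sirt1 and Parp1), and a GC box in 35.7% of all windows and in 10 of the 13. The window of Sirt7 is covered by exons of Sirt7 and its neighbour Mafg and is not printed. The ETS core (CCGGAAG, on either strand) was also searched for. It was found in 8.86% of all windows and in 5 of the 13, and is in neither printed stretch. A match of any motif says only that its letters are present.

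Among the genes of NAD supply, Nampt (ENSMUSG00000020572, chr12:32820335-32853369, plus strand, GRCm38) encodes the rate-limiting enzyme of NAD salvage from nicotinamide. Normalized counts of Nampt, scaled to a common library size, were 1166, 1120 and 1196 with PBS against 1283, 1327 and 1306 with D-gal. All D-gal libraries lay above all control libraries. The means were 1161 ± 38.0 and 1305 ± 22.0 (SD, n = 3 each), a 1.12-fold rise with a 95% interval of 1.05 to 1.21 (log2 fold change 0.17, standard error 0.04, adjusted p = 0.0191 in edgeR's quasi-likelihood test). An exact two-sided permutation test of these 6 values gave p = 0.1, the smallest that the 10 ways to divide 6 libraries into 3 and 3 allow. The raw counts, 1338, 1373 and 1184 against 1143, 1215 and 1084, came from control libraries that were all deeper than the D-gal libraries, so the rise is one relative to the library total.

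The call for Nampt was close to the threshold. It was kept in 9 of 13 alternative settings, with adjusted p from 0.00818 to 0.0662, and was lost with DESeq2 (0.0598) and without control replicate 2 (0.0662), D-gal replicate 2 (0.0587) or D-gal replicate 3 (0.052). Without control replicate 1, which held the leukocyte signal, the log2 fold change of Nampt was 0.17 with an adjusted p of 0.0467.

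Nmnat1 (ENSMUSG00000028992, chr4:149467572-149485202, minus strand) encodes the nuclear enzyme that completes NAD synthesis. It was measured from few reads, with normalized counts of 73.2, 67.7 and 83.8 in control libraries and 58.4, 110.3 and 73.5 in D-gal libraries. D-gal replicate 2 was the highest and D-gal replicate 1 the lowest of the 6, and the groups overlapped. The log2 fold change was 0.11 with a 95% interval of -0.42 to 0.65 (adjusted p = 0.742 in edgeR), and without D-gal replicate 2 it was -0.18. The spread among D-gal libraries, a coefficient of variation of 33.1%, was larger than the 12.3% that counting error alone gives, and 8.39% of the 31-base words of Nmnat1 also occur in other annotated genes.

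Sirt1 (ENSMUSG00000020063, chr10:63319005-63381704, minus strand) encodes a mainly nuclear deacetylase of histones and transcription factors. Its normalized counts were 769, 673 and 608 in control libraries against 725, 758 and 794 under D-gal. The groups overlapped because control replicate 1 lay above 2 of the D-gal libraries. The means of 683 ± 80.8 and 759 ± 34.6 (SD, n = 3 each) differed by a log2 fold change of 0.15 with a 95% interval of -0.05 to 0.35 (adjusted p = 0.228 in edgeR). Control libraries varied by 11.8%, against 3.65% from counting error. Leaving out control replicate 1 gave 0.24 (adjusted p = 0.0545) and leaving out control replicate 3 gave 0.07, so the size of this difference rests on which control libraries enter.

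Sirt6 (ENSMUSG00000034748, chr10:81621785-81627797, minus strand) encodes a chromatin-bound deacylase with known roles at telomeres and in DNA repair. Normalized counts of 520, 527 and 541 in control and 469, 486 and 487 in D-gal libraries did not overlap, and the D-gal group was the lower. The difference did not pass the test, with means of 530 ± 10.7 and 481 ± 9.98 (SD, n = 3 each), a log2 difference of -0.14 (95% interval -0.27 to -0.01) and an adjusted p of 0.0951 in edgeR. It passed in none of 13 alternative settings (adjusted p from 0.0965 to 0.326). Sirt6 was the only member of the 10 whose D-gal libraries all lay below the control libraries.

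Sirt7 (ENSMUSG00000025138, chr11:120618372-120625240, minus strand) encodes the nucleolar sirtuin, known for its association with ribosomal RNA genes. Control libraries gave normalized counts of 319, 303 and 301 and D-gal libraries 389, 371 and 377. The gap between the groups exceeded the range within either group. The coefficient of variation, 3.23% in control and 2.44% in D-gal libraries, was below that of counting error alone, 5.41% and 5.48%. A value below counting error was seen for 6 of the 10 genes in control and 7 in D-gal libraries. The ranges may therefore understate the spread. Sirt7 rose 1.23-fold, from 308 ± 9.92 to 379 ± 9.26 (SD, n = 3 each), with a 95% interval of 1.10 to 1.38 (log2 fold change 0.30, standard error 0.07, adjusted p = 0.0113 in edgeR, and p = 0.1 in the exact permutation test). The call held in 13 of 13 alternative settings, with adjusted p from 0.0112 to 0.0398 and log2 fold changes of 0.28 to 0.33 when single libraries were left out, including 0.33 without control replicate 1. At an adjusted p under 0.01 neither Sirt7 nor Nampt would be called. Ranked by p-value among all genes tested, Sirt7 stood at 2849 and Nampt at 3356.

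The counts of Sirt7 carry an uncertainty from its position. Its annotated exons share 124 bases, 2.41% of their length, with exons of Mafg on the same strand. Mafg had 8573 counts over all libraries and a difference of -0.07 on the log2 scale (standard error 0.06, adjusted p = 0.418 in edgeR). The part of the shared bases in the result for Sirt7 was not tested.

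Sirt2 (ENSMUSG00000015149, chr7:28766735-28788665, plus strand) encodes a mainly cytosolic deacetylase that acts on tubulin among other proteins. Its normalized counts were 797, 820 and 820 in control and 817, 848 and 786 in D-gal libraries. The D-gal libraries spanned the whole control range. The log2 fold change was 0.01 with a 95% interval of -0.11 to 0.13 (adjusted p = 0.92 in edgeR), and it was -0.01 without control replicate 1 and -0.02 without D-gal replicate 2. Sirt2 shares 42 exon bases with Nfkbib on the other strand, and whether counting used the strand is not given in the sources used here.

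Among the sirtuins, the mitochondrial ones had the fewest reads. Sirt3 (ENSMUSG00000025486, chr7:140863670-140882309, minus strand), the main deacetylase of mitochondrial proteins, had normalized counts of 70.6, 71.0 and 63.6 in control and 58.4, 65.5 and 66.3 in D-gal libraries. These overlapped, and the log2 fold change of -0.11 had a 95% interval of -0.44 to 0.21 (adjusted p = 0.581 in edgeR). Exons of Sirt3 overlap those of Ric8a (418 bases) and Psmd13 (342 bases) on the other strand, which had log2 fold changes of 0.02 and -0.03 and did not pass the test.

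Sirt4 (ENSMUSG00000029524, chr5:115478010-115484725, minus strand) encodes a mitochondrial sirtuin with ADP-ribosyltransferase and lipoamidase activity. Its normalized counts were 124, 161 and 119 in control and 147, 169 and 154 in D-gal libraries. Control replicate 2 stood within the D-gal range and the other control libraries below it. The log2 fold change was 0.22 with a 95% interval of -0.11 to 0.54 (adjusted p = 0.277 in edgeR), and from 0.14 to 0.37 as single libraries were left out.

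Sirt5 (ENSMUSG00000054021, chr13:43370710-43395202, plus strand) encodes an enzyme that removes succinyl, malonyl and glutaryl groups. Normalized counts of 61.9, 59.6 and 53.5 in control and 79.7, 63.3 and 68.7 in D-gal libraries did not overlap, but the lowest D-gal and the highest control library were close. The log2 fold change of 0.27, nearly that of Sirt7, had a 95% interval of -0.09 to 0.63 and an adjusted p of 0.216 in edgeR. Sirt5 was counted from 53 to 73 reads per library and Sirt7 from 298 to 371. Of the 31-base words of Sirt5, 16.39% also occur in other annotated genes.

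Parp1 (ENSMUSG00000026496, chr1:180568924-180601254, plus strand), a nuclear NAD consumer that is activated by DNA breaks, was the most counted of the 10. Normalized counts of 2132, 2276 and 2217 in control and 2215, 2270 and 2218 in D-gal libraries overlapped fully, with every D-gal library inside the control range. The log2 fold change was 0.02 with a 95% interval of -0.07 to 0.10 (adjusted p = 0.761 in edgeR), and -0.01 without control replicate 1.

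**Figure D2:**
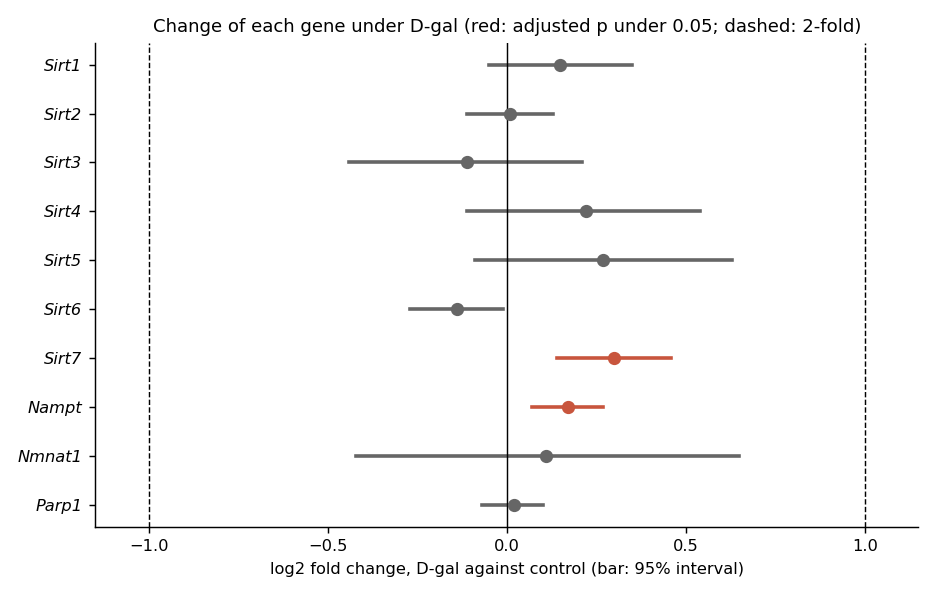
Log2 fold change of D-gal against control for the 10 genes (horizontal axis), with points for the edgeR estimate, bars for the 95% interval and dashed lines at 2-fold. The intervals of Sirt7 (0.14 to 0.46) and Nampt (0.07 to 0.27), in red, lie above 0 and those of Nmnat1 and Sirt5 are among the widest.

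How closely a change was bounded differed between the genes. The intervals are not adjusted for the number of genes tested, so a change outside them need not be called. Sirt6, whose interval left out no change, did not pass the test. The interval reached 1.06-fold to either side of the estimate for Parp1, 1.07-fold for Nampt, 1.09-fold for Sirt2 and 1.10-fold for Sirt6. It reached 1.25-fold for Sirt3 and Sirt4, 1.28-fold for Sirt5 and 1.45-fold for Nmnat1. A change of the size seen in Sirt7 is smaller than this reach in Nmnat1, Sirt3, Sirt4 and Sirt5, whereas for Parp1 and Sirt2 it lies outside the interval.

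Levels of different genes were set side by side as CPM per kilobase of merged annotated exons. In the control group Parp1 was at 24.9 ± 0.811 and Nampt at 13.7 ± 0.447 (SD, n = 3 each), followed by Sirt6 at 11.3 ± 0.23, Sirt2 at 9.61 ± 0.155 and Sirt1 at 7.64 ± 0.903. Sirt7 at 3.56 ± 0.115 and Sirt4 at 3.34 ± 0.567 overlapped. Nmnat1 at 1.47 ± 0.161, Sirt3 at 0.682 ± 0.0413 and Sirt5 at 0.57 ± 0.0422 were the lowest. In the D-gal group the order was the same but for Sirt5 and Sirt3, at 0.69 ± 0.0815 and 0.632 ± 0.0436, which overlapped, as did Sirt6 at 10.3 ± 0.214 and Sirt2 at 9.67 ± 0.372.

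The order below Nampt depends on the scale used. The gene lengths behind the deposited FPKM values are not given in the sources used here. In these values, control means were 17.6 for Parp1 and 15.0 for Nampt. Then came 7.66 for Sirt2, 7.34 for Sirt6, 3.82 for Sirt1 and 2.51 for Sirt5. Below these were 1.81 for Sirt3, 1.71 for Sirt4, 1.56 for Sirt7 and 0.914 for Nmnat1. The length implied by count, FPKM and library total was 1367 bases for Sirt5 and 11612 for Sirt7. Their merged exons covered 6093 and 5148 bases. The implied length of Sirt7 exceeds the span of the gene itself, so it is no exon length. How the FPKM values were computed was not tested. Sirt5 stood above Sirt7 on 1 scale and below it on the other, while Parp1 and Nampt led on both.

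**Figure D3:**
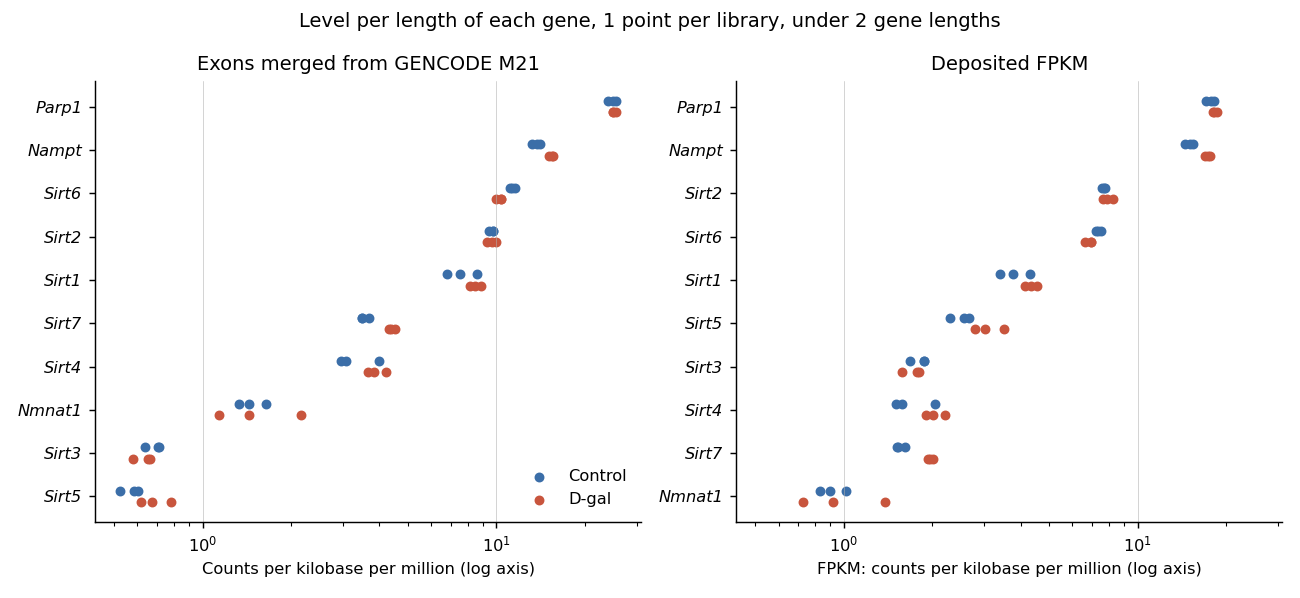
Level per length of the 10 genes on log axes, 1 point per library, as CPM per kilobase of merged exons (left) and as deposited FPKM (right). Parp1 and Nampt lead on both scales, while Sirt5 is lowest among control libraries on the left and above Sirt3, Sirt4, Sirt7 and Nmnat1 on the right.

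The summed level of the 7 sirtuins was 159, 156 and 149 CPM in control and 160, 165 and 163 in D-gal libraries. Within the sum of sirtuin levels per length, the share of Sirt6 was 29.9% to 32.5% in control and 26.9% to 27.3% in D-gal libraries. The share of Sirt7 was 9.39% to 9.91% and 11.1% to 12.1%. Neither share overlapped between the groups, and nor did that of Sirt3, at 1.78% to 1.9% in control and 1.56% to 1.73% in D-gal libraries. Shares of Sirt1, Sirt2, Sirt4 and Sirt5 overlapped. Normalized counts did not overlap in 49.1% of all genes tested. The shares depend on the merged exon lengths.

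The genes around these enzymes were described by lists of the pathway. Of 22 genes of NAD synthesis and salvage other than Nampt and Nmnat1, 12 were tested, of which 2 rose and 2 fell (33.3% called, against 34.8% of all genes), and Nmrk2, Qprt, Haao, Kmo, Kynu and Acmsd were at 0 counts. Nadk2, the mitochondrial NAD kinase, rose from normalized counts of 2352, 2147 and 2273 to 4306, 4206 and 4390 (log2 fold change 0.93, standard error 0.04, adjusted p = 6.23e-06 in edgeR). The mitochondrial relative of Nmnat1, Nmnat3, rose from 39.2, 50.6 and 40.4 to 85.3, 92.8 and 66.3 (0.90, standard error 0.19, adjusted p = 0.00765). Nmnat2, the relative found in the Golgi and cytosol, fell from 261, 299 and 290 to 202, 201 and 208 (-0.48, standard error 0.09, adjusted p = 0.00424). The groups of all 3 genes, named for their small p-values, were apart. So were 49.1% of all genes tested and, of the 12 in this list, 2 higher and 5 lower genes. The log2 fold changes of Nadk2, Nmnat3 and Nmnat2, in both directions, were larger in size than that of Nampt. Nadsyn1, NAD synthetase, also fell (-0.46, standard error 0.15, adjusted p = 0.0456), but passed in 4 of 13 alternative settings and not without control replicate 1, 2 or 3 or D-gal replicate 1 or 3. With control replicate 1 removed, log2 fold changes were 0.96 for Nadk2, 0.83 for Nmnat3 and -0.53 for Nmnat2, each still called, and -0.49 for Nadsyn1 (adjusted p = 0.0772 in edgeR).

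Of the 8 genes tested for the breakdown of nicotinamide and NAD, 1 rose and 2 fell (37.5% called, against 34.8% of all genes). Enpp3, an ectoenzyme that cleaves nucleotides, fell from 193, 182 and 194 to 114, 79.7 and 83.1 normalized counts and reached the thresholds of the study (log2 fold change -1.04, standard error 0.15, adjusted p = 0.00125 in edgeR). Nudt12, an NADH and NAD pyrophosphatase, rose (0.52, standard error 0.10, adjusted p = 0.00571), and Aox1, which oxidizes methylated nicotinamide, fell (-0.52, standard error 0.15, adjusted p = 0.0294, not passed without control replicate 1, 2 or 3 or D-gal replicate 2). Nudt12 shares 6.91% of its 31-base words with other genes. Leaving out control replicate 1 gave -1.02 for Enpp3 and 0.59 for Nudt12, both called, and -0.55 for Aox1 (adjusted p = 0.0558 in edgeR). Enpp3 was also called without D-gal replicate 2 (-0.94) or D-gal replicate 3 (-0.97), but then fell short of the 2-fold threshold of the study.

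The next list held 22 genes, namely relatives of Parp1, genes that remove ADP-ribose, Hpf1 and Xrcc1. All were tested, and 4 rose and 2 fell (27.3% called, against 34.8% of all genes). Parp10, a mono-ADP-ribosyltransferase, rose from 489, 549 and 569 to 944, 885 and 1033 (log2 fold change 0.83, standard error 0.08, adjusted p = 0.000178 in edgeR). It shares 205 exon bases on the same strand with Plec, which had 101716 counts and fell (-0.37, adjusted p = 0.0122). Tankyrase 1, Tnks, rose (0.23, standard error 0.03, adjusted p = 0.000665), as did Parg, which degrades poly(ADP-ribose) (0.37, standard error 0.05, adjusted p = 0.00108). Hpf1, the cofactor that directs Parp1 to serine, fell from 481, 450 and 443 to 327, 300 and 360 (-0.48, standard error 0.08, adjusted p = 0.00347), while Parp1 itself was at 0.02. With control replicate 1 left out, Parp10 was at 0.77, Tnks at 0.24, Parg at 0.35 and Hpf1 at -0.44, all called.

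Of the 11 zinc-dependent histone deacetylases, which use no NAD, 2 were called (18.2%, against 34.8% of all genes). Hdac5 fell (log2 fold change -0.28, standard error 0.04, adjusted p = 0.00158 in edgeR) and Hdac2 rose (0.18, standard error 0.06, adjusted p = 0.0443). The call for Hdac2 held in 7 of 13 alternative settings and was lost without control replicate 1 or 2 and without each D-gal replicate. In the absence of control replicate 1, Hdac5 was at -0.26 (called) and Hdac2 at 0.15 (adjusted p = 0.124 in edgeR).

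Of 21 genes tested that regulate sirtuins or encode their substrates, 4 rose and 4 fell (38.1% called, against 34.8% of all genes). Ppargc1a, a coactivator deacetylated by Sirt1, rose from 44.4, 46.5 and 42.4 to 94.3, 100 and 110 normalized counts (log2 fold change 1.18, standard error 0.14, adjusted p = 0.000461 in edgeR). Hif1a rose from 3973, 3969 and 4049 to 7277, 8286 and 7973 (0.97, standard error 0.05, adjusted p = 9.03e-06), and Acss2, an acetyl-CoA synthetase activated by Sirt1, rose (1.13, standard error 0.14, adjusted p = 0.00061). Idh2, a mitochondrial substrate of Sirt3, fell from 1698, 1732 and 1867 to 1140, 1095 and 1231 (-0.61, standard error 0.06, adjusted p = 0.000162). Hif1a shares 6.72% and Acss2 7.57% of their 31-base words with other genes, and Acss2 overlaps Gss and Ggt7 on the other strand. Ppargc1a was at 1.18, Hif1a at 0.97, Acss2 at 1.13 and Idh2 at -0.64 without control replicate 1, all called. Ppargc1a and Acss2 reached the thresholds of the study, which none of the sirtuins did.

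**Figure D4:**
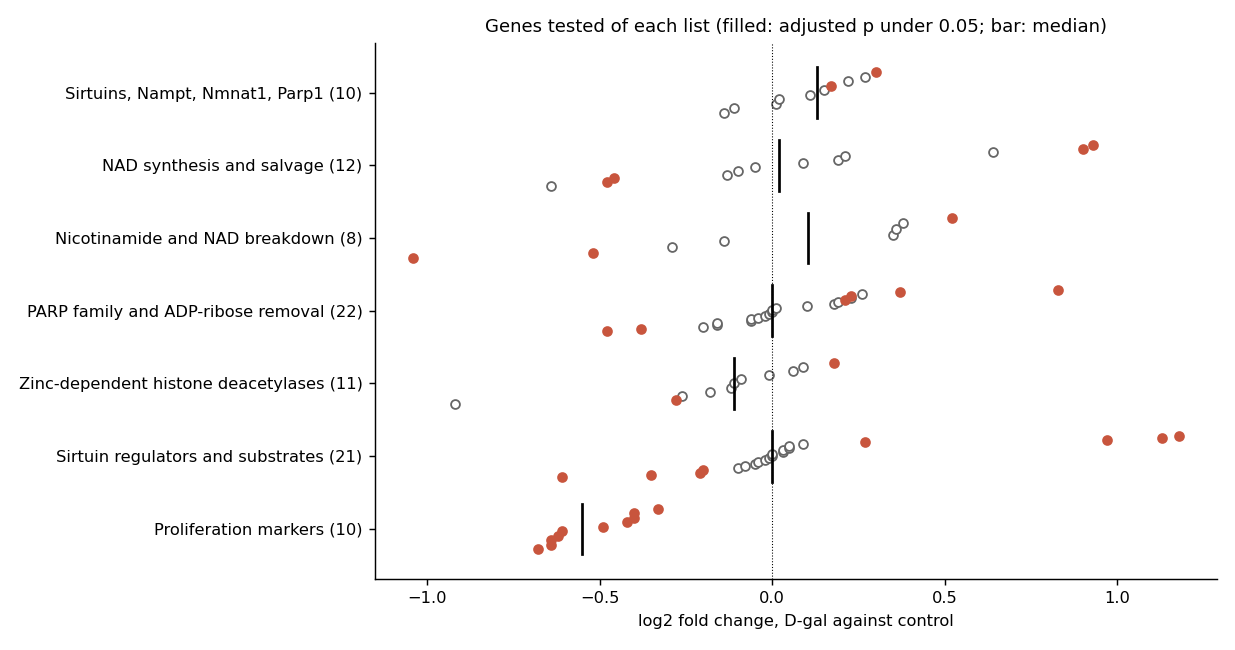
Log2 fold change of D-gal against control (horizontal axis) for each gene tested of the 10 genes, the pathway lists and the proliferation markers, with filled points at an adjusted p under 0.05, a bar at each median and the number tested in parentheses. The 10 genes lie between -0.14 and 0.30 with a median of 0.13, and all 10 proliferation markers lie below 0.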

How the data were processed

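RNA was measured in 3 control and 3 D-gal libraries of NOR-10 cells, grouped by the sample labels. The deposited read count of each gene in each library carries no normalization. The deposited FPKM value beside it comes from the authors, and the gene lengths behind it are not given in the sources used here. Read quality was assessed with FastQC and reads were trimmed with Trimmomatic by the authors, and the submitters' processing notes name HISAT2 (version 2.0.4). The counting tool, its use of strand and the annotation are not given in the sources used here. The methods name a small RNA kit and the labels an RNA-seq kit.

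Counts were tested with edgeR (version 4.0.16) in R (version 4.3.3), with TMM factors, genes kept by filterByExpr and the quasi-likelihood test, 3 libraries against 3 with no covariate, and Benjamini-Hochberg adjustment over all 13407 genes tested. A normalized count is the count brought to the mean TMM-scaled library size. Intervals are 95% intervals from the standard error and the degrees of freedom of the fit. Total counts of 13759108 to 20830349 per library set the precision. Averaged over genes with at least 20 counts in a pair of libraries, replicates differed by more than sampling noise. The chi-square over its degrees of freedom was 5.998 to 9.417. No library was therefore a copy of another, which does not show that the cultures were separate. Exon lengths, overlaps and shared words of 31 bases came from GENCODE release M21 (GRCm38), which holds all 10 genes, 6 with the same start and end. Promoter sequences and motif shares came from RefSeq.

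The members and the lists were chosen with earlier results of these data known. All 10 members are named, and of each pathway list the 4 genes with the smallest p among those called and any gene at the thresholds of the study. The alternatives were DESeq2 (version 1.42.0), RLE size factors, no filter, a minimum of 10 counts per library, a block for the replicate number, each library left out, limma (version 3.58.1) on log2(FPKM + 1), counts thinned to the smallest library (seed 7), an adjusted p under 0.01, and for levels the deposited FPKM. The fits were tested on simulated data.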

Additional observations from a re-analysis of the deposited data

How the results depend on the processing

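Of the 10 genes, the count that passed was 2 in edgeR and also with the replicate number as a block, 1 with DESeq2, 0 at an adjusted p under 0.01 and 1 to 2 as each library was left out; all of these were higher under D-gal, and 0 were lower in any setting. Sirt7 passed in all 13 alternatives run on single genes and Nampt in 9. Over all genes, 4661 passed, 2729 at an adjusted p under 0.01, and those at the thresholds of the study numbered 564, or 120 with limma on log2(FPKM + 1), a scale that understates the change of low genes. The zinc-dependent deacetylases called were 2, 1 with the block, 1 at an adjusted p under 0.01 and 1 to 2 with single libraries left out. Differences near 0 changed sign: Sirt2 was -0.00077 without a filter and -0.02 to 0.03 with single libraries left out, Nmnat1 -0.18 to 0.30 and Parp1 -0.01 to 0.04 (log2), and the cause was not tested. Pairing by replicate number was not seen. Same-numbered deviations correlated at -0.0133, -0.00403 and 0.0277, and not every library correlated best with its own number. Differently numbered ones ran from -0.0305 to 0.0356. Correlations this small cannot show whether same-numbered libraries were handled together. Under the block 3982 genes passed, and Nampt had an adjusted p of 0.0485. Nmnat1, Sirt3 and Sirt5 had 52 to 101 counts per library, the fewest of the 10 genes.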

Other observations

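The ratio of Sirt7 to Sirt6 counts, which needs no scaling between libraries and was chosen after the values of both genes had been seen, was 0.613, 0.574 and 0.556 with PBS against 0.83, 0.764 and 0.775 with D-gal. That the groups did not overlap follows from the values given above, as all D-gal libraries were higher for Sirt7 and lower for Sirt6. It is therefore no further result. The ratio compares reads on genes of unequal length, is no ratio of transcript numbers and was not tested.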
